A study of Bos taurus with 6 samples.

Results

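Retinol and retinaldehyde are converted into each other, and onward to retinoic acid, by a small set of enzymes. Their transcripts were followed in muscle of fattened steers kept with or without added vitamin A. The set holds 10 genes, DHRS3, DHRS4, RDH11, RDH10, RDH16, ADH1C, ADH5, ALDH1A1, BCO1 and RETSAT, taken by their known reactions. All probe sets that the array's annotation assigns to 1 such gene alone were used. This gave 13 probe sets for 9 of the 10 genes, out of 24016 tested probe sets, and RDH11, which reduces retinaldehyde, had no probe set. The animals were castrated male cattle of the Japanese Black breed, and the tissue was longissimus thoracis, a muscle of the back. The restricted group was 3 steers without the supplement, aged 589, 595 and 611 days when sampled. The supplemented group was 3 steers given 296.8 IU of vitamin A per kg body weight by mouth each week, aged 600, 612 and 618 days. Both groups were 13 to 14 months old at the start and were fattened for 7 months at an intended gain of 1.0 kg per day. How much vitamin A the restricted steers still took in with their feed is not given in the sources used here.

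Vitamin A circulates and is stored as retinol and its esters. Retinol is oxidised reversibly to retinaldehyde, and retinaldehyde is oxidised irreversibly to retinoic acid, the ligand of the retinoic acid receptors. RDH10 drives the first step forward and DHRS3 drives it back, so that this pair sets how much retinaldehyde is at hand. DHRS3 transcription is itself raised by retinoic acid in several mammalian cell types, which makes it a commonly used readout of retinoid status.

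Values are expression values as the authors deposited them, taken here as log2, 1 array per steer. They vary extremely little between arrays, for a reason not stated in the sources used here. Across all tested probe sets the highest and the lowest array lay a median of 0.677 millionths of a log2 unit apart, and the 99th percentile of this range was 781 millionths. Single steers are therefore given as the distance from the probe set's own mean over the 6 arrays, in millionths of a deposited log2 unit. These distances are not read as fold changes, and values of different probe sets are not ranked against each other. Of 10 listed markers of skeletal muscle fibres 8 had a probe set. The actin ACTA1 stood at a deposited log2 value of 12.67 and the creatine kinase CKM at 11.55 in both groups. Among the listed markers of muscle fibres, adipocytes, fibroblasts, endothelium, macrophages, lymphocytes, red blood cells and liver, 0 passed the adjusted threshold of 0.05 in limma. Over all tested probe sets 0.00416% passed this threshold. Each marker was read at its probe set with the highest mean. Below 0.05 before adjustment were the myosin MYH1 and the adipocyte protease CFD, against 4.08% of all tested probe sets. MYH1 was lower in restricted steers (-3.46 within-group SDs, limma unadjusted p = 0.00836) and CFD higher (6.35 SDs, limma unadjusted p = 0.000717). Neither overlapped between the diets. Of the 8 measured fibre markers 6 had a lower and 2 a higher mean in restricted steers. In bulk tissue, fewer cells of a type and less RNA per cell cannot be told apart.

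DHRS3, the reductase that returns retinaldehyde to retinol, was lower in the restricted steers. Restricted steers 1, 2 and 3 lay at -212, -225 and -219 millionths, against 215, 213 and 228 millionths in supplemented steers 1, 2 and 3. All 3 restricted steers lay far below all 3 supplemented steers, and the steers of each diet lay close together. The restricted steers spanned 12.8 millionths and the supplemented steers 14.6 millionths, while the empty interval between the groups was 425 millionths wide, or 94.0% of the whole range. The deposited log2 value averaged 5.874243 with an SD of 6.38 millionths in the restricted group, and 5.874680 with an SD of 7.99 millionths in the supplemented group (n = 3 each). The difference of -437 millionths had an SE of 5.58 and a 95% interval of -452 to -422 millionths (limma, adjusted p = 0.000794 over all tested probe sets). The exact two-sided permutation test of this probe set alone gave p = 0.1, the smallest that 3 against 3 can give. DHRS3 was the 1 enzyme probe set of 13 past the adjusted threshold of 0.05, and the only 1 of all 24016 tested probe sets (0.00416%). That share is DHRS3 itself, so it is no separate background for the count. DHRS3 was put in the set with this result known, so the count is a description and gives no independent support. Age as a covariate left the difference at -436 millionths but took the adjusted p to 0.0617, so that DHRS3 is no longer called. With the replicate number as a block it was -437 millionths (limma adjusted p = 0.522), and DHRS3 was not called either. Of 12 listed adipocyte markers 10 were measured, each read at its probe set with the highest mean. All 10 had a higher mean in restricted steers as deposited, with a median of 1.06 within-group SDs. LEP differed by 1.37 millionths, less than the 2.22 millionths that a shift to equal array medians takes off. Over all probe sets, 1 of 2 of LEP and 2 of 4 of LIPE were lower. Groups did not overlap in 2 of the 10, CFD and CIDEA, both higher in restricted steers, against 8.76% of all tested probe sets. The summed distance of the 10 markers, left unscaled so that widely varying markers such as FABP4 weigh most, overlapped between the diets. It ran from -15951 to 29696 millionths in the restricted steers and from -41500 to 15512 millionths in the supplemented steers. The part of these markers in the DHRS3 result was not tested.

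**Figure D1:**
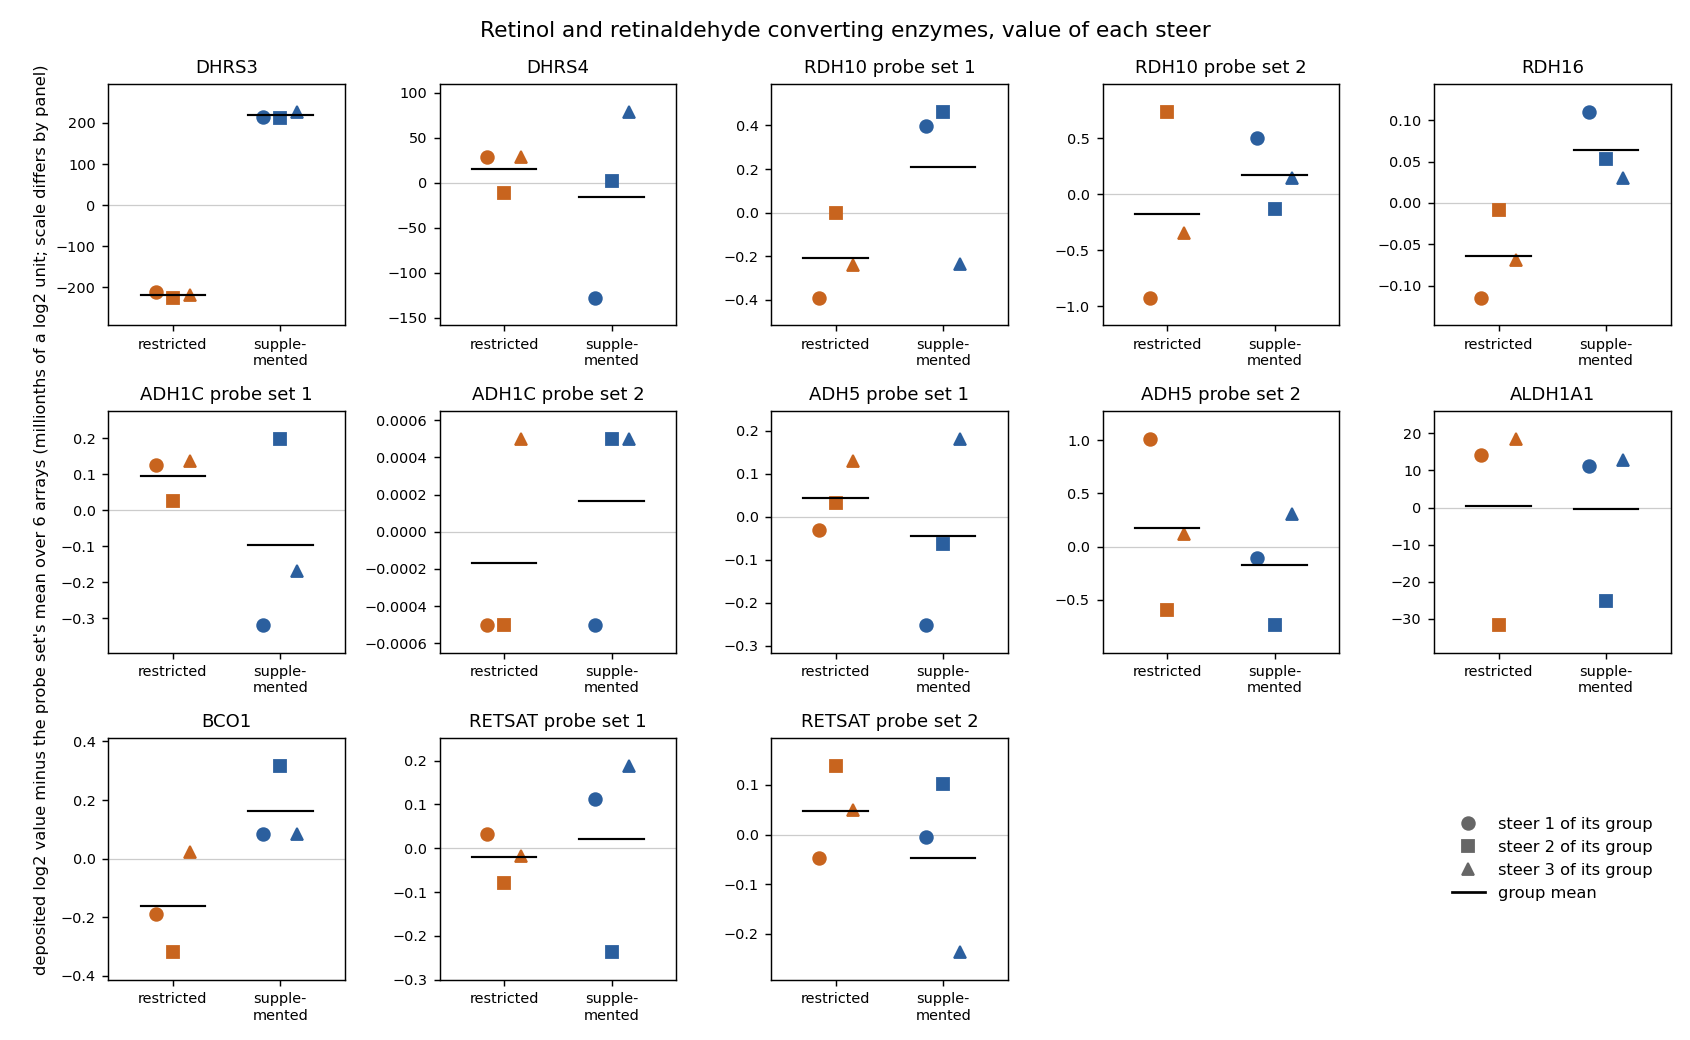
Each panel plots 1 probe set, with the deposited log2 value of each steer minus the mean over the 6 arrays on the y axis (millionths of a log2 unit, scale set per panel), restricted steers on the left in orange and supplemented steers on the right in blue, and black lines for the group means. DHRS3 splits into restricted steers from -225 to -212 and supplemented steers from 213 to 228 millionths, while most other panels overlap.

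DHRS4, a peroxisomal reductase that also accepts retinaldehyde, varied widely from steer to steer without the diets parting. Restricted steers lay at 28.6, -11.7 and 29.1 millionths, against -127, 2.13 and 79.4 millionths in the supplemented steers. The 3 restricted steers fell inside the span of the supplemented group, whose steer 1 was the lowest and steer 3 the highest of all. The difference was 30.6 millionths with a 95% interval of -125 to 186 millionths (limma unadjusted p = 0.625, adjusted p = 1). Without supplemented steer 1 it was -25.4 millionths.

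RDH10, the main retinol dehydrogenase of the embryo and of many tissues, is measured by 2 probe sets. In its first probe set restricted steers lay at -0.389, 0 and -0.239 millionths, against 0.398, 0.464 and -0.234 millionths in the supplemented steers. Supplemented steers 1 and 2 were above every restricted steer and supplemented steer 3 was among them. The second probe set had -0.920, 0.741 and -0.345 millionths in restricted steers, against 0.505, -0.128 and 0.149 millionths in supplemented steers. Here restricted steer 2 was the highest of all, and the groups overlapped. The differences were -0.419 millionths (95% interval -1.05 to 0.213) and -0.350 millionths (95% interval -1.66 to 0.960). Both were negative, and neither passed the test (limma adjusted p = 1). Of the opposing pair, DHRS3 was called and RDH10 was not. The difference between their responses was not tested.

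RDH16, a microsomal retinol dehydrogenase best known from liver, had -0.115, -0.00850 and -0.0695 millionths in the restricted steers, against 0.111, 0.0525 and 0.0295 millionths in the supplemented steers. The groups did not overlap, restricted steers being lower, with a gap of 16.9% of the range. The difference was -0.128 millionths, or -2.68 within-group SDs, with a 95% interval of -0.246 to -0.0106 millionths (limma unadjusted p = 0.0384, adjusted p = 1). It did not pass the adjusted threshold. The whole range of this probe set, 0.225 millionths, was narrower than that of most probe sets on the array, at the 24.9th percentile.

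The alcohol dehydrogenases ADH1C, a class I enzyme that oxidises retinol beside ethanol, and ADH5, the class III enzyme that mainly clears formaldehyde bound to glutathione, lie in the same gene cluster, with 3 protein-coding genes between them in the ARS-UCD2.0 annotation. Each has 2 probe sets. The first ADH1C probe set had 0.125, 0.0263 and 0.136 millionths in restricted steers, against -0.318, 0.198 and -0.169 millionths in supplemented steers. Restricted steers lay close together inside the wide span of the supplemented group. Its difference was 0.192 millionths with a 95% interval of -0.209 to 0.593 (limma adjusted p = 1). The second ADH1C probe set held only 2 distinct values, 0.00100 millionths apart, which is the last digit of the file, so it gives no comparison.

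For ADH5 the first probe set had -0.0300, 0.0330 and 0.129 millionths in restricted steers, against -0.251, -0.0630 and 0.182 millionths in supplemented steers. The second had 1.02, -0.601 and 0.115 millionths in restricted steers, against -0.105, -0.736 and 0.311 millionths in supplemented steers. Groups overlapped in both, and the steers did not keep the same order from the first to the second. Differences were 0.0880 millionths (95% interval -0.254 to 0.430) and 0.353 millionths (95% interval -1.05 to 1.76), with limma adjusted p = 1 for both.

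ALDH1A1, a retinaldehyde dehydrogenase that makes retinoic acid and the step after retinaldehyde in the pathway, had nearly equal group means. Restricted steers lay at 14.0, -31.6 and 18.6 millionths, against 11.3, -25.1 and 12.8 millionths in supplemented steers. Steer 2 of each diet was low and the other 4 steers lay between 11.3 and 18.6 millionths, so the range of 50.2 millionths ran within the diets. The deposited log2 value averaged 8.055671 with an SD of 27.8 millionths in the restricted group and 8.055671 with an SD of 21.5 millionths in the supplemented group (n = 3 each). The difference was 0.678 millionths with a 95% interval of -50.3 to 51.6 millionths (limma unadjusted p = 0.973, adjusted p = 1). The interval is wide, and within it neither a higher nor a lower value in restricted steers is settled. Steer 2 of each diet was also the lowest of its group in the summed adipocyte markers, at -15951 millionths in restricted steer 2 and -41500 millionths in supplemented steer 2. The same held for the summed fibroblast markers, at -8198 and -21660 millionths, and the summed liver markers, at -3.99 and -3.18 millionths. The part of any cell type in the ALDH1A1 values was not tested.

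BCO1, which cleaves dietary beta-carotene into retinaldehyde, had -0.190, -0.318 and 0.0218 millionths in restricted steers, against 0.0848, 0.317 and 0.0848 millionths in supplemented steers. The groups did not overlap, but the gap of 0.0630 millionths was 9.92% of the range. The difference was -0.324 millionths, or -2.11 within-group SDs, with a 95% interval of -0.647 to -0.00153 millionths (limma unadjusted p = 0.0493, adjusted p = 1), and it did not pass the adjusted threshold.

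RETSAT, the saturase that turns retinol into dihydroretinol and is abundant in fat tissue, has 2 probe sets that differ in sign. The first had 0.0332, -0.0798 and -0.0168 millionths in restricted steers, against 0.112, -0.237 and 0.188 millionths in supplemented steers. The second had -0.0470, 0.138 and 0.050 millionths in restricted steers, against -0.00600, 0.101 and -0.236 millionths in supplemented steers. In both the groups overlapped, and supplemented steer 3 was the highest in the first and the lowest in the second. Their differences of -0.0423 millionths (95% interval -0.388 to 0.303) and 0.0940 millionths (95% interval -0.197 to 0.385) did not pass the test (limma adjusted p = 1).

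The enzyme probe sets differed in how far they varied at all, also within 1 gene, as in ADH5 with ranges of 0.433 and 1.75 millionths. DHRS3, DHRS4 and ALDH1A1, 3 of the 13 probe sets, ranged over more than the 90th percentile of all tested probe sets, which is 17.3 millionths. Another 3, both of RDH10 and the second of ADH5, lay between the median and that percentile, and 7 lay below the median range. Of the 3 that varied widely, DHRS3 alone varied between the diets, and in DHRS4 and ALDH1A1 the widest distances were between steers of the same diet. Groups did not overlap in 3 of the 13 probe sets, DHRS3, RDH16 and BCO1, against 8.76% of all tested probe sets. All 3 were lower in restricted steers, which holds for 4.64% of all tested probe sets, and 0 were higher, which holds for 4.12%. The same 3 had a limma unadjusted p under 0.05, against 4.08% of all. These counts include DHRS3, put in the set with its result known, so they are a description and give no independent support. Of the 12 probe sets left without the second of ADH1C, 6 had a difference below 0, against 51.5% of all, and 6 above 0. This split depends on the scaling, since giving all arrays an equal median puts 12 of all 13 below 0, and quantile normalization gives 12 of the 13 a difference of 0, DHRS3 being the exception.

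**Figure D2:**
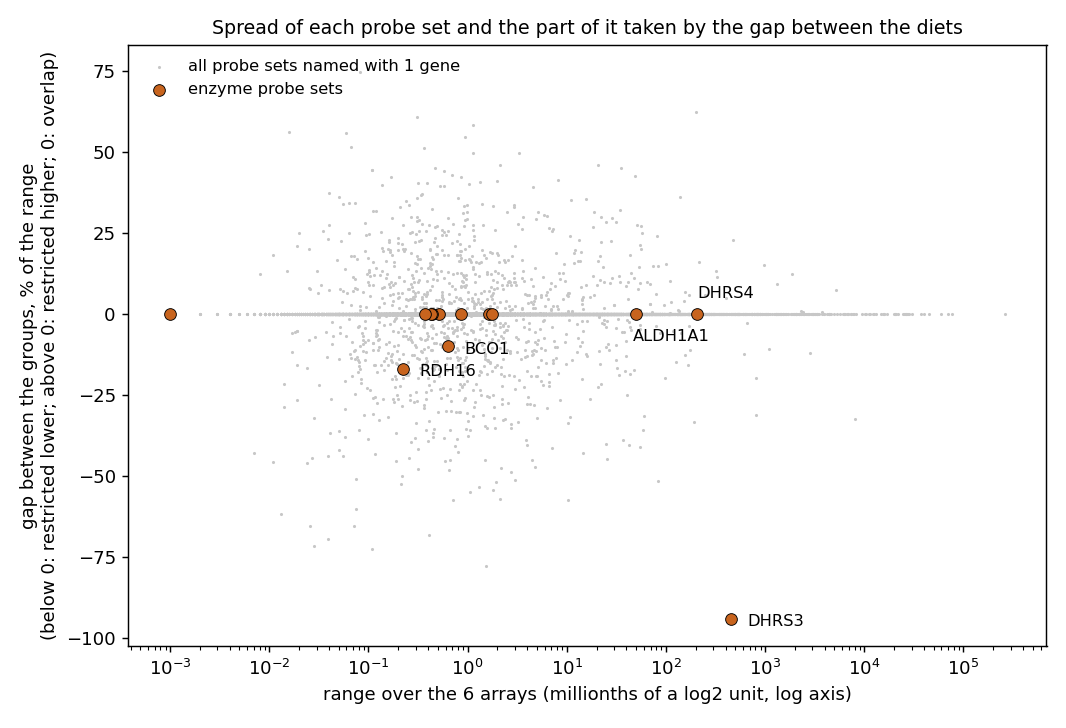
The x axis is the range of a probe set over the 6 arrays (millionths of a log2 unit, log axis) and the y axis the share of that range taken by the gap between the diets, negative where restricted steers were lower and 0 where the groups overlap; grey points are all tested probe sets named with 1 gene and orange points the 13 enzyme probe sets. DHRS3 stands at a range of 453 millionths and a gap of 94.0%, RDH16 and BCO1 at gaps of 16.9% and 9.92% with ranges under 1 millionth.

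The difference of DHRS3 kept its direction under every setting tried. Quantile normalization moved the difference most, to -340 millionths, and the other settings nearly kept its size. When each steer was left out in turn it lay between -440 and -433 millionths, with adjusted p from 0.00991 to 0.0492. The adjusted p was highest without restricted steer 3.

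**Figure D3:**
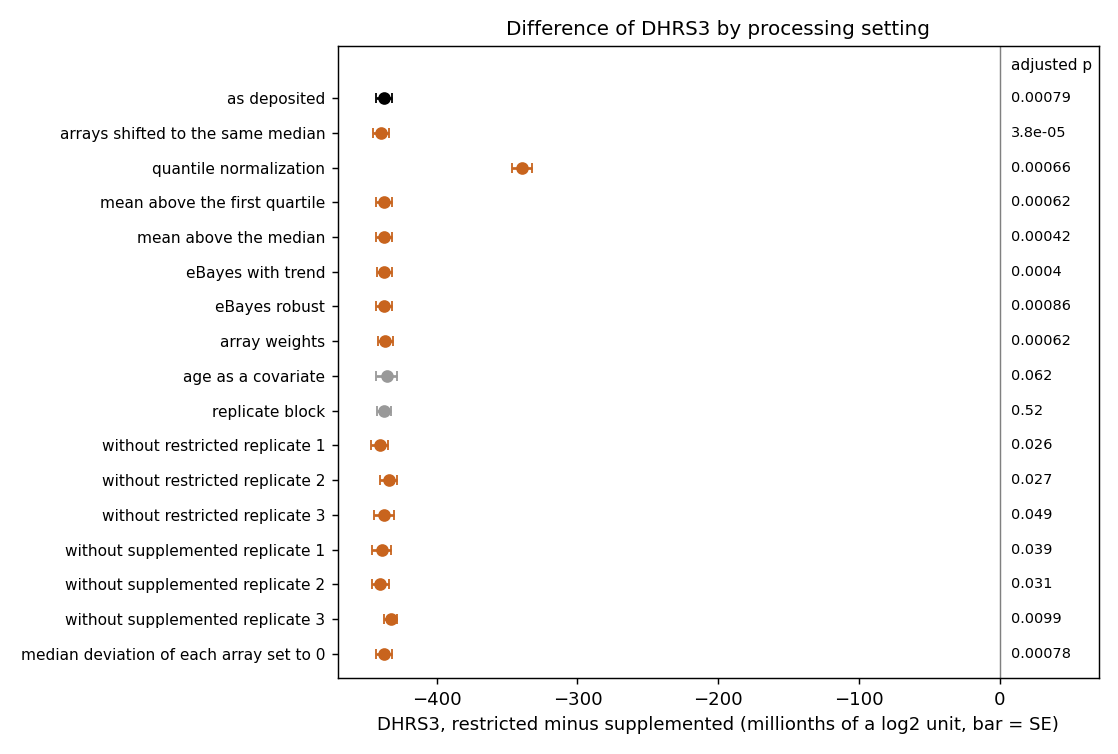
Points are the difference of DHRS3, restricted minus supplemented, on the x axis (millionths of a log2 unit, bars are SE) under each processing setting down the y axis, with the limma adjusted p at the right; grey points have an adjusted p above 0.05. All points lie between -440 and -340 millionths, and the grey ones are age as a covariate and the replicate block.

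The rest of the retinoid pathway was read from lists, with each gene represented by whichever of its probe sets had the highest mean. Of 48 measured genes on the 7 lists, 27 had a higher, 20 a lower and 1 an equal mean in restricted steers as deposited. Over all tested probe sets 51.5% had a difference below 0. Directions on all these lists depend on the scaling, since an equal array median takes 2.22 millionths off every difference. Means higher by less than that, as in DHRS7 and HOXA4, turn lower under this shift. In limma 0 of the 48 passed the adjusted threshold, DHRS3 being the only probe set called of all tested (0.00416%). Before adjustment 3 of the 48, DHRS7, RBP4 and HOXA4, were below 0.05, against 4.08% of all tested probe sets, each with a higher mean in restricted steers. Groups did not overlap in 6 of the 48, or 12.5%, near the 8.76% of all tested probe sets. Among 17 measured genes on the broad list of other retinol and retinaldehyde enzymes 10 were higher and 7 lower. Their median difference was 0.158 within-group SDs, the value of RPE65, against -0.0322 over all tested probe sets. The list takes in ALDH1L1 (-0.176 SDs), whose action on retinaldehyde is not shown here. The smallest unadjusted p there belonged to DHRS7, a short-chain reductase, at 1.25 millionths or 2.11 SDs (limma unadjusted p = 0.0461, adjusted p = 1). SDR16C5, a retinol dehydrogenase of epithelia, differed by 0.319 millionths (1.85 SDs) and RDH8, the retinaldehyde reductase of photoreceptors, by -0.0827 millionths (-1.71 SDs).

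Storage, supply and carrier genes showed no call either. For storage and hydrolysis of retinyl esters 5 of 6 measured genes were higher, with a median of 0.588 SDs. LIPE is among those 5, though 2 of its 4 probe sets were lower. Lipoprotein lipase, LPL, differed by 2672 millionths (1.15 SDs, limma unadjusted p = 0.201), the pancreatic lipase PNLIP by 0.0797 millionths (1.00 SDs) and LRAT, which esterifies retinol, by -0.0397 millionths (-1.49 SDs). In carotenoid supply 2 of 3 were higher, with a median of 0.674 SDs, led by the fatty acid and carotenoid transporter CD36 at 918 millionths (1.88 SDs, limma unadjusted p = 0.0643). SCARB1, a carotenoid and lipoprotein receptor, differed by 2.13 millionths (0.674 SDs) and BCO2, which cleaves carotenoids off-centre, by -0.202 millionths (-0.323 SDs). LPL and CD36 are expressed by fat cells too. All 10 measured fat cell markers, each at its probe set with the highest mean, were higher in restricted steers as deposited. The part of fat cells in these values was not tested.

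Of 6 measured retinoid binding proteins 4 were lower, with a median of -0.227 SDs. RBP4, the plasma retinol carrier, differed by 25.1 millionths (2.12 SDs, limma unadjusted p = 0.0456, adjusted p = 1), CRABP1 by -0.424 millionths (-1.44 SDs) and FABP5, which carries fatty acids and retinoic acid, by 990 millionths (1.17 SDs). All 4 measured receptors had a lower mean, from -0.962 SDs in RARA to -0.161 SDs in RXRG, with a median of -0.255 SDs, and RARA has another probe set of the opposite sign. RXRA and RXRB differed by -0.320 and -0.191 SDs. Of the enzymes that break down retinoic acid 1 of 5, CYP2S1, was measured, and its group means were equal.

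No gene on the list of genes raised by retinoic acid, which leaves out DHRS3, passed the adjusted threshold. Of 15 such measured genes 9 were higher and 6 lower in restricted steers, with a median of 0.0545 SDs. The smallest unadjusted p belonged to HOXA4, a homeobox gene, which differed by 0.988 millionths or 2.29 SDs (limma unadjusted p = 0.0360, adjusted p = 1). As deposited this was the direction opposite to DHRS3, but a shift to equal array medians, which takes off 2.22 millionths, turns it. LRAT and HOXA5 followed at -1.49 and 0.832 SDs, and the probe sets of HOXA5 differ in sign.

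**Figure D4:**
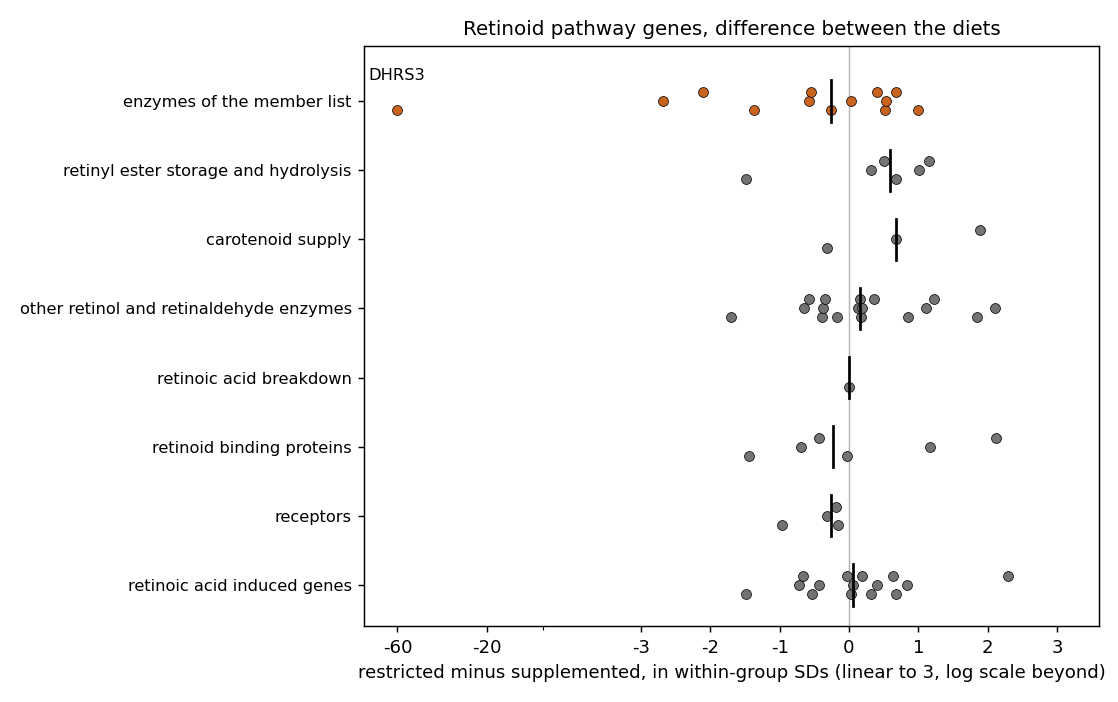
The x axis is the difference between the diets, restricted minus supplemented, in within-group SDs of the same probe set (linear to 3, log scale beyond), with a point for each enzyme probe set in orange and each other pathway gene in grey and a black line at each list's median. DHRS3 lies at -60.5 SDs, and all other points lie between -2.68 and 2.29 SDs.

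Nearness to the pattern of DHRS3 was measured after scaling each probe set from 0 at its lowest to 1 at its highest array, as the root mean square distance over the 6 arrays. Of all probe sets named with 1 gene, the 5 nearest were APBA3, an adaptor protein, at a distance of 0.0774, a gene listed as LOC526041 at 0.0820, TP53RK, a kinase, at 0.0820, PEX10, a peroxisome assembly factor, at 0.0991 and TULP3, a protein of the primary cilium, at 0.104. These genes were picked for this likeness, so it is not a test. In each the 3 restricted steers were below the 3 supplemented steers, with gaps from 68.1% of the range in TULP3 to 77.8% in APBA3. Their ranges were far narrower than the 453 millionths of DHRS3, from 0.0280 millionths in LOC526041 to 1.54 millionths in APBA3. None passed the adjusted threshold, and the smallest adjusted p was 0.366 for APBA3.

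**Figure D5:**
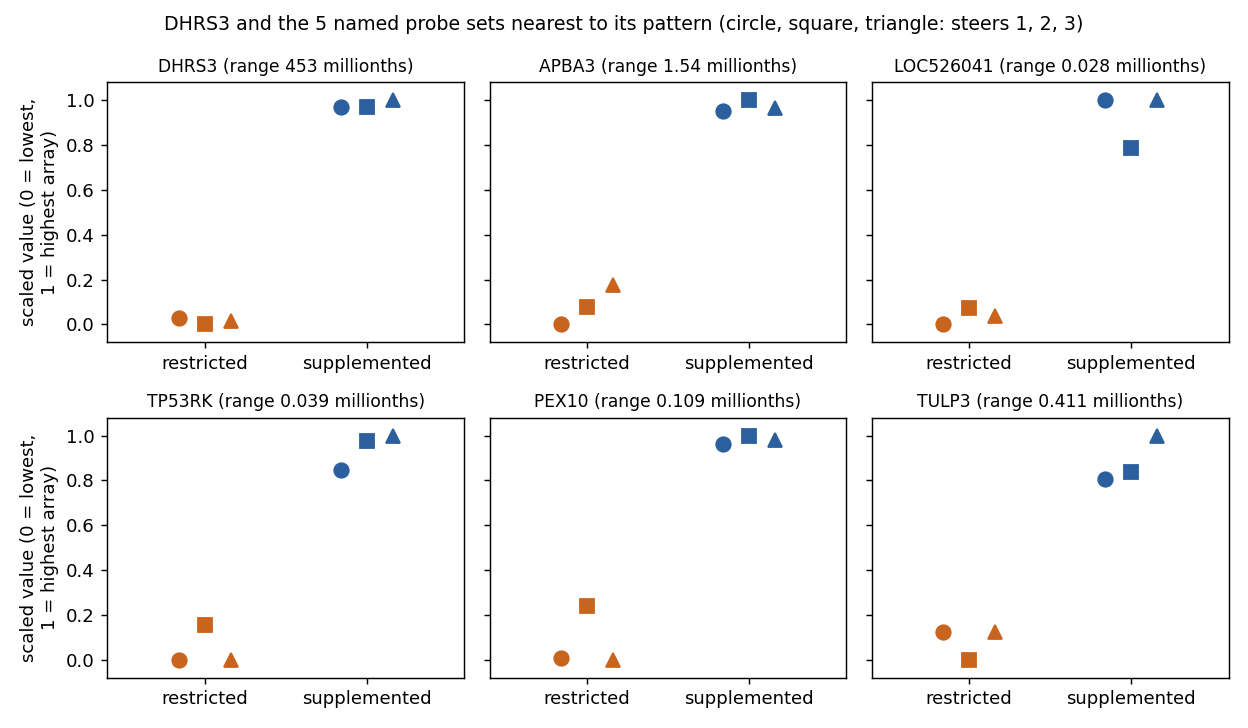
Each panel shows 1 probe set scaled from 0 (lowest array) to 1 (highest array) on the y axis, restricted steers on the left and supplemented steers on the right, circles, squares and triangles standing for steers 1, 2 and 3. DHRS3 leaves 94.0% of its range empty between the diets, the other panels from 68.1% to 77.8%.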

How the data were processed

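The authors deposited 1 table of processed values for 24128 probe sets on 6 arrays, taken here as log2 because they run from about 5 to 13. Per the labels' protocols, 100 ng of total RNA was amplified and biotin-labelled for a 3 prime GeneChip array. Neither the log base nor how background, normalization and probe summaries were handled is stated in the labels. The 112 control probe sets were left out. Differences of restricted minus supplemented steers in the other 24016 came from limma 3.58.1 under R 4.3.3, using lmFit and eBayes with no trend on values multiplied by 1e+09. P-values were adjusted by Benjamini-Hochberg across all of them. Intervals are at 95%. The fit was tested on simulated data. Symbols came from the array's platform annotation, and the gene identifiers of the 9 measured genes carry the same symbols in ARS-UCD2.0. Coordinates are left out, since the array names no build, and sequences were not used here. Array signal over background was not analysed here, so detection of a transcript is not known, and the number of arrays limits the precision.

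The members and gene lists were chosen with earlier results of these data known. All members and all their probe sets are named, of each list up to 3 genes with the smallest unadjusted p, and the 5 probe sets nearest to DHRS3. Alternatives were shifts of the arrays, quantile normalization, filters on low values, other variance moderation, array weights, age, the replicate number as a block, each steer left out, and averaging over a gene's probe sets.

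Nothing in the labels says that the replicate numbers in the titles pair the steers. Correlations of same-numbered steers' deviations over probe sets were 0.0374, 0.0151 and 0.0152. Those of unlike-numbered steers were lower, from -0.0214 to 0.0061. All are small, and they do not settle whether the numbers pair the steers.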

Additional observations from a re-analysis of the deposited data

How the results depend on the processing

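DHRS3 stayed lower in restricted steers under all 16 alternatives and past the threshold in 14. With age as a covariate it was -435.5 millionths (limma adjusted p = 0.0617), and the counts called were 0 probe sets in all and 0 enzyme probe sets, with 983 of all at an unadjusted p under 0.05. With the replicate block it was -437.1 millionths (adjusted p = 0.522), with counts of 0 and 0 and 1192 at an unadjusted p under 0.05. That block leaves fewer residual degrees of freedom. Quantile normalization called 35 probe sets, DHRS3 among them at rank 34 by p, and left 15456 with equal values on all arrays. Without each steer in turn the count ran from 1 to 2, with 2 without supplemented steer 3, and the enzyme count stayed at 1. The adjusted p of DHRS3 lay between 3.84e-05 and 0.522 over all alternatives.

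Signs of uncalled enzymes turned as follows, in millionths. The shift to the same array median, which takes 2.22 off every difference, gave -2.03 for the first ADH1C probe set, -2.14 and -1.87 for the ADH5 probe sets, -1.55 for ALDH1A1 and -2.13 for the second RETSAT probe set. With each array's median deviation set to 0, chosen after seeing the data, the second ADH1C probe set, which varies in the last digit only and gives no comparison, was at 0.00283, and with age at 0.000287. Means over a gene's probe sets were 0.0958 for ADH1C and 0.0258 for RETSAT. Leaving out steers gave values from -25.4 to 78.0 for DHRS4, from -0.808 to 0.0227 for the second RDH10, from -0.0155 to 0.201 and from -0.0663 to 0.742 for the ADH5 probe sets, from -11.7 to 16.7 for ALDH1A1, and from -0.171 to 0.0412 and from -0.000500 to 0.168 for the RETSAT probe sets. Under quantile normalization 12 of the 13 enzyme probe sets, all but DHRS3, had a difference of 0. Beside that setting, RDH16, BCO1 and the first RDH10 probe set kept their sign under every alternative that measured them, with none past the threshold. The cause of these turns was not tested.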
